A study of Mus musculus with 12 samples.

Results

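NF-κB is the family of transcription factors through which macrophages switch on inflammatory genes after contact with bacterial products, and the 10 genes described here encode its subunits and the proteins that hold it back. They were the rows of the deposited count table whose Ensembl identifiers map to Nfkb1, Nfkb2, Rela, Rel and Relb (the 5 Rel-family subunits), Nfkbia, Nfkbib and Nfkbie (the 3 classical IκB genes), Nfkbiz (the atypical, nuclear IκBζ) and Tnfaip3 (the ubiquitin-editing enzyme A20). All 10 were found among the 55891 identifiers of the table, and all 10 passed the filter on low counts, which left 13525 genes for testing.

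The libraries came from macrophages grown from mouse bone marrow over 6 days in medium with M-CSF (10 ng/mL), which drives marrow progenitors to the macrophage fate. The mice were either Ptprz1 knockouts (KO), which lack a receptor-type tyrosine phosphatase, or wild type (WT). The groups were KO and WT cells given 100 ng/mL LPS, a bacterial cell wall lipopolysaccharide, together with 10 ng/mL IFNγ for 24 h (LPS+IFNγ, called M1 in the labels), KO and WT cells given 20 ng/mL IL-4 for 24 h (called M2), and untreated KO and WT cells (control), with 2 libraries in each of the 6 groups. The strain label names the same targeted strain, B6.129-Ptprz1tm1Nmo, for every sample, while titles and genotype labels set KO and WT apart. The labels give neither the age of the mice nor the animals or cultures behind each library, so the spread that p-values rest on is that between libraries and may be technical.

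In resting cells, Rel-family dimers are kept in the cytoplasm by IκB proteins. Receptors for LPS and cytokines activate the IKK kinase complex, which marks IκBα for destruction, so that dimers such as p50 with RelA enter the nucleus and switch on genes that include Nfkbia and Tnfaip3, their own inhibitors. A slower, non-canonical branch runs through the kinase NIK, which causes the p100 product of Nfkb2 to be processed to p52, the partner of RelB. RNA levels show none of these protein steps directly.

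Total counts ran from 13665607 to 19555600 per library. Member counts ran from 42 for Nfkbiz in WT IL-4 library 1 to 11303 for Nfkbia in WT LPS+IFNγ library 1. The macrophage markers fixed for the check were detected in 10 of 10 cases, with a summed level of 8735 to 21463 CPM (counts scaled to library size with TMM factors), 6 of 8 T and NK cell markers were detected, at a summed 0 to 1.71 CPM with Cd3e and Ncr1 at 0 counts throughout, and 9 of 10 granulocyte markers were detected, with Ly6g at 0 counts throughout. Ptprz1 itself had 0 counts in 11 of 12 libraries and 7 in the other (WT IL-4 library 2), and the knockout cannot be checked from RNA here. KO libraries had 86.3 to 111 CPM of the Y-linked Ddx3y and 0 counts of Xist, which silences an X chromosome in female cells, while WT libraries had 0 counts of Ddx3y and 232 to 618 CPM of Xist. The libraries of a KO group differed more from each other than those of a WT group, with a chi-square per gene of 53.8, 54.9 and 48.4 in KO against 7.81, 15.6 and 7.1 in WT under LPS+IFNγ, IL-4 and control. The tests below used 1 estimate of the spread per gene, shared by all groups. The SEs and p-values given for KO and for WT therefore do not carry this difference in spread.

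Every member was higher after LPS+IFNγ than in control cells, in both genotypes, by between 1.68-fold (Rela in KO) and 16.2-fold (Tnfaip3 in KO, where 1 library stood far above the rest). The inhibitor genes Nfkbia, Nfkbie and Tnfaip3 had the largest values, at 11.1 to 16.2 times control. Rela, Rel and Nfkb1 were 1.68 to 2.5 times as high. Between these, inhibitors and subunits were mixed. Nfkbib (5.28-fold in KO and 4.83-fold in WT) was below the subunit gene Nfkb2 (5.82-fold and 5.59-fold). Nfkbiz was at 7.3-fold in KO and 4.46-fold in WT, and Relb at 3.79-fold and 3.05-fold. With edgeR's quasi-likelihood test and Benjamini-Hochberg adjusted p-values, 10 of 10 members were called higher in KO and 10 of 10 in WT, against a background of 27.2% of all tested genes called higher in KO and 27.4% in WT. The median log2 fold change over the members was 2.47 in KO and 2.21 in WT, and over all tested genes −0.0131 in KO and −0.0482 in WT. Both stimulated libraries lay above both control libraries for all 10 members in each genotype, which was also so for 37.0% of all genes in KO and 40.7% in WT. The summed level of 10 granulocyte markers was higher too, at 266 and 502 CPM in KO and 214 and 197 CPM in WT LPS+IFNγ libraries. In control it was 41.9 and 17.8 CPM in KO and 37.7 and 46.7 CPM in WT. Not all 10 markers were detected in any of these libraries: 6 and 4 in KO and 6 and 5 in WT LPS+IFNγ libraries. In KO control libraries 8 and 2 were detected, and in WT control libraries 7 and 8. The part of these markers in the member values was not tested. In bulk RNA such as this, fewer cells of a kind and less RNA per cell cannot be told apart.

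**Figure D1:**
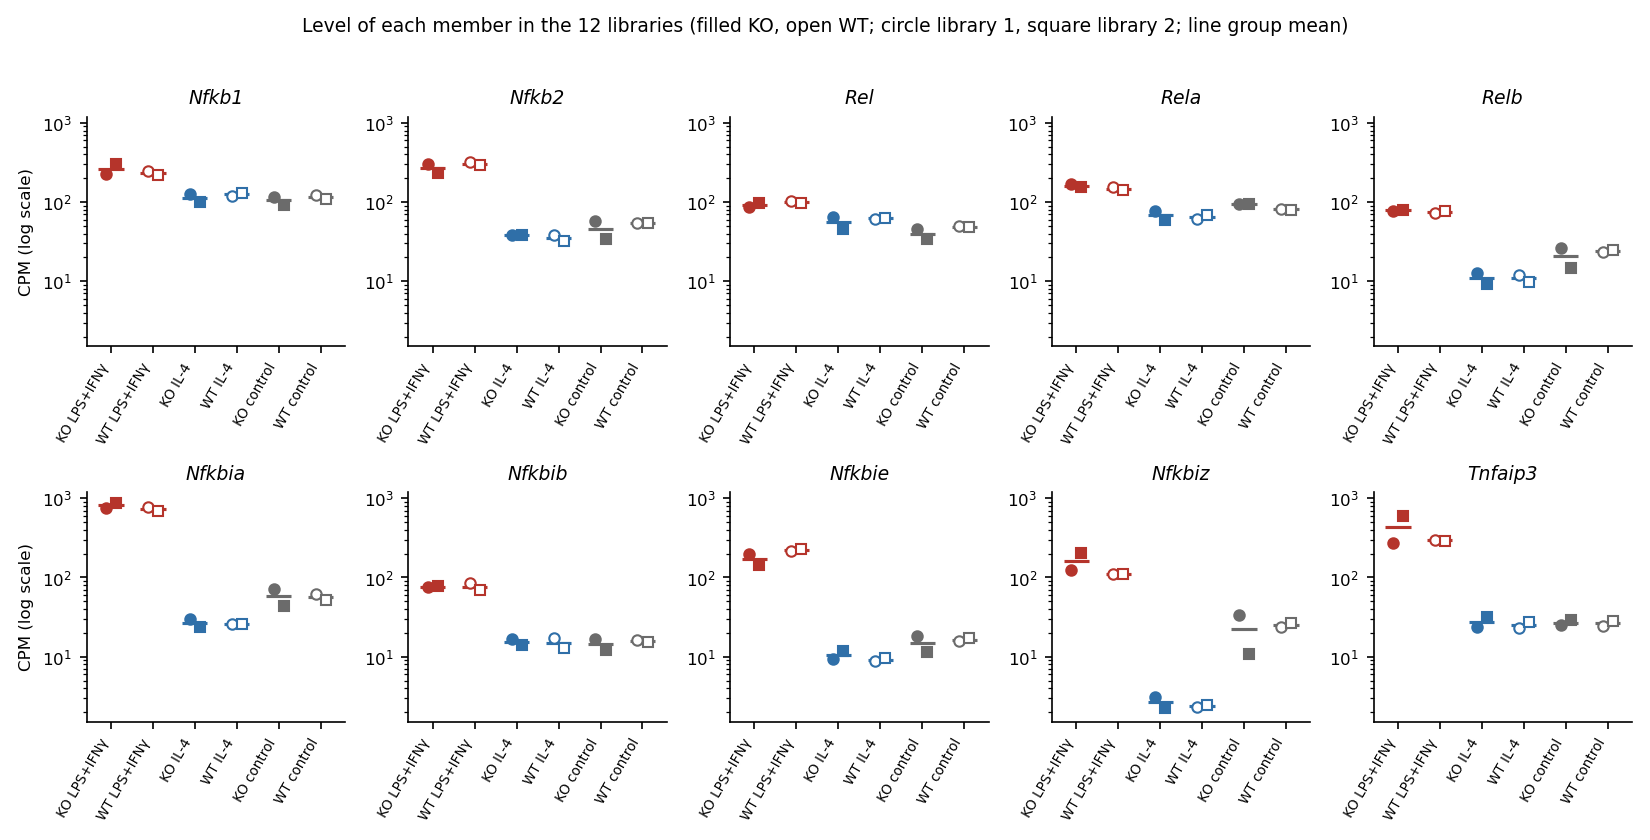
Level of each member in CPM (log axis) in the 12 libraries, by group, with KO left of WT and the stimulated groups left of control; points are libraries and lines are group means (n = 2). The LPS+IFNγ libraries are the highest for all 10 genes, and Nfkbiz is at 2.23 to 3.06 CPM in the 4 IL-4 libraries, below its 4 control libraries.

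Among the subunits, Nfkb2 responded most. It encodes p100, which is both the precursor of p52 and an IκB-like inhibitor. Nfkb2 had 303 and 230 CPM in KO LPS+IFNγ libraries and 318 and 290 CPM in WT LPS+IFNγ libraries, against 57.7 and 33.9 CPM in KO control and 55.0 and 53.6 CPM in WT control. The stimulated libraries did not overlap the control libraries, and the log2 fold change was 2.54 ± 0.23 in KO (SE; edgeR adjusted p = 1.82e-05) and 2.48 ± 0.23 in WT (1.91e-05). Relb, whose product pairs with p52 and p100, lay between 71.7 and 78.5 CPM in the 4 stimulated libraries, against 14.7 to 26.6 CPM in the 4 control libraries. Its log2 fold change was 1.92 ± 0.25 in KO (edgeR adjusted p = 0.000161) and 1.61 ± 0.25 in WT (0.000433).

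The remaining subunits rose less. Nfkb1, which encodes the p105 precursor of p50, had 224 and 300 CPM in KO and 244 and 221 CPM in WT LPS+IFNγ libraries, against 117 and 92.3 CPM in KO control and 122 and 108 CPM in WT control. This gave a log2 fold change of 1.32 ± 0.18 in KO (SE; edgeR adjusted p = 0.000237) and 1.01 ± 0.18 in WT (0.00113). Rel, the c-Rel subunit with its own transactivation domain, lay between 87.5 and 104 CPM in the stimulated libraries and between 34.4 and 49.6 CPM in control libraries. Its log2 fold change was 1.22 ± 0.17 in KO (edgeR adjusted p = 0.000304) and 1.03 ± 0.17 in WT (0.000765).

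Rela, the transactivating p65 subunit of the classical dimer, moved least of all members. It had 167 and 154 CPM in KO and 154 and 142 CPM in WT LPS+IFNγ libraries, against 95.6 and 95 CPM in KO control and 82.7 and 79.1 CPM in WT control. The log2 fold change was 0.75 ± 0.13 in KO (SE; edgeR adjusted p = 0.00119) and 0.87 ± 0.13 in WT (0.000462). Scaling by total counts in place of TMM factors shifted the median of all genes to −0.51 in KO and −0.55 in WT. All members kept positive values under it, but Rela in KO was then 0.25 and no longer called (adjusted p = 0.145). That scaling also lowered the share of calls that were higher to 24.8% in KO and 24.9% in WT, against 51.0% and 50.4% with TMM factors.

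**Figure D2:**
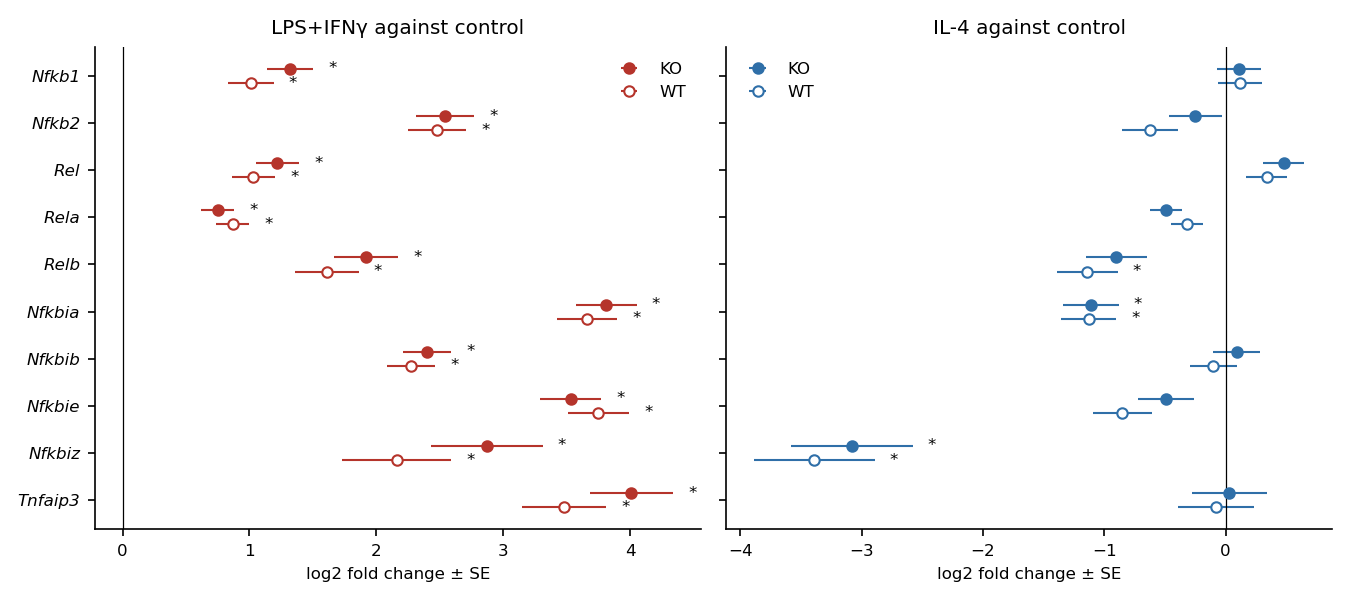
Log2 fold change ± SE of each member after LPS+IFNγ (left) and IL-4 (right) against control, KO filled and WT open; an asterisk marks an edgeR adjusted p below 0.05. All LPS+IFNγ values are above 0 and called, while the 5 IL-4 values that are called are below 0.

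Nfkbia, which encodes IκBα, was the most abundant member after LPS+IFNγ. It had 753 and 872 CPM in KO and 770 and 682 CPM in WT LPS+IFNγ libraries, against 72.0 and 43.8 CPM in KO control and 62.2 and 52.3 CPM in WT control. The lowest stimulated library was thus far above the highest control library, with a log2 fold change of 3.81 ± 0.24 in KO (SE; edgeR adjusted p = 2.27e-06) and 3.66 ± 0.24 in WT (2.56e-06). Nfkbie, which encodes IκBε, a slower feedback inhibitor, had 199 and 144 CPM in KO and 215 and 229 CPM in WT LPS+IFNγ libraries, against 18.3 and 11.3 CPM in KO control and 15.9 and 17.0 CPM in WT control. Its log2 fold change was 3.53 ± 0.24 in KO (edgeR adjusted p = 3.3e-06) and 3.75 ± 0.24 in WT (2.25e-06).

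Nfkbib, which encodes IκBβ, lay between 69.0 and 84.3 CPM in the 4 stimulated libraries and between 12.2 and 16.5 CPM in the 4 control libraries. The log2 fold change was 2.40 ± 0.19 in KO (SE; edgeR adjusted p = 7.36e-06) and 2.27 ± 0.19 in WT (9.04e-06). The Nfkbib locus overlaps Sirt2, a deacetylase gene on the opposite strand, which had 87.8 to 99.5 CPM in LPS+IFNγ and 103 to 114 CPM in control libraries. Whether strand was used in counting is not given in the sources used here, so the Nfkbib counts are uncertain. Nfkb2 overlaps the antisense transcript AC114539.1, which stayed at or below 15.8 CPM, and Nfkb1 overlaps Gm43430, at or below 0.968 CPM.

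Tnfaip3 and Nfkbiz had the widest spread between libraries. A20, the product of Tnfaip3, edits ubiquitin chains and damps signalling upstream of IKK. Tnfaip3 had 276 and 596 CPM in KO and 295 and 293 CPM in WT LPS+IFNγ libraries, against 24.9 and 29.0 CPM in KO control and 24.7 and 28.1 CPM in WT control. KO LPS+IFNγ library 2 stood far above the other 3 stimulated libraries, yet all 4 were clear of control. The log2 fold change was 4.01 ± 0.33 in KO (SE; edgeR adjusted p = 9.92e-06) and 3.48 ± 0.33 in WT (1.93e-05). Without KO LPS+IFNγ library 2, which also had the highest sum of granulocyte markers (502 CPM), the KO value was 3.36, and it stayed called; the part of these markers was not tested.

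IκBζ, the product of Nfkbiz, acts in the nucleus as a cofactor of p50 for secondary target genes. Nfkbiz had 125 and 202 CPM in KO and 112 and 112 CPM in WT LPS+IFNγ libraries, against 33.8 and 10.8 CPM in KO control and 23.9 and 26.5 CPM in WT control. KO control library 1, the highest of the controls, also had a summed level of 324 CPM over 10 interferon-stimulated genes, against 45.3 to 47.7 CPM in the other control libraries; the part of this in its Nfkbiz level was not tested. The log2 fold change of Nfkbiz was 2.87 ± 0.44 in KO (SE; edgeR adjusted p = 0.000447) and 2.16 ± 0.43 in WT (0.00207). The KO value was 3.91 without KO control library 1 and 2.27 without KO control library 2, and it stayed called in both.

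The sequence in front of the start site was read for the members that RefSeq's promoter table (GRCm38.p6) holds, which were 7 of 10 with 10 start sites, because these genes moved together and κB elements are where Rel-family dimers bind. The table did not hold Nfkb1, Relb or Nfkbiz. Windows of 250 bases upstream of each start site were searched on both strands for the 10-base κB consensus. This was GGGRNNYYCC, with R for A or G, Y for C or T and N for any base. At least 1 match was found for 5 members (Nfkb2, Rel, Nfkbia, Nfkbie and Tnfaip3) and none for Rela or Nfkbib. Counted by window, 7 of the 10 member windows held a match, against 7.25% of all 32851 windows of this length in the table. The windows of Nfkbia, Nfkb2 and Tnfaip3, which have matches and large responses, and of Rela, with no match and the smallest response, follow 5′ to 3′ on the gene's strand, with κB matches in capitals.
Nfkbia (chr12:55492648-55492897, minus strand): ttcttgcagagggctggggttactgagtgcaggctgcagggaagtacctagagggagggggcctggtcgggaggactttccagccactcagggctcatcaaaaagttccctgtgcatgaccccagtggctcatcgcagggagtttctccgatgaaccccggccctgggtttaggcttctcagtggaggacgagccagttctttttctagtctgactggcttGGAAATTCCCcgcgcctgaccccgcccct
Nfkb2, the first of 3 start sites listed (chr19:46304487-46304736, plus strand): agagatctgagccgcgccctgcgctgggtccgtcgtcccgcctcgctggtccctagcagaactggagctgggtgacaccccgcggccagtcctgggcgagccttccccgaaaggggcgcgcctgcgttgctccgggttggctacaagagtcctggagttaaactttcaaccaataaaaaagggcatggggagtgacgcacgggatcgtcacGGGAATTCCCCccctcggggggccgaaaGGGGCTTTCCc
Tnfaip3, the second of 2 start sites listed (chr10:19015411-19015660, minus strand): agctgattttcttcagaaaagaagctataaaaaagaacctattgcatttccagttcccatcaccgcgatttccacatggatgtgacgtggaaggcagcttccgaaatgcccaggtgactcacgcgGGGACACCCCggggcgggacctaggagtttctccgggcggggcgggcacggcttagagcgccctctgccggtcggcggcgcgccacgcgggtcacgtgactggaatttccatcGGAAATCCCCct
Rela (chr19:5637291-5637540, plus strand): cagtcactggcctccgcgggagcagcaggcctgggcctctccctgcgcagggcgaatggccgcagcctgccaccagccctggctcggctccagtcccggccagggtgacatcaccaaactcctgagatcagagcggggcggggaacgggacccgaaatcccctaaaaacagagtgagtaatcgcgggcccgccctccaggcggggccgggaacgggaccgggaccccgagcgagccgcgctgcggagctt

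Nfkbia carried 1 match, GGAAATTCCC, 29 to 20 bases before its start site. Nfkb2 carried 3 matches at its first start site, which include overlapping readings of the same stretch, and 1 at each of the other two. The other Tnfaip3 window, at the inner start site, held none. Of the palindromes read by STAT factors, which act after IFNγ and IL-4, TTCNNNGAA was found in the first Nfkb2 window, against 7.02% of all windows, and the form with 1 more base between its arms in the second Tnfaip3 window, against 5.85%. Matches of the κB consensus were found in genes with weak as well as strong responses, since Rel, with 2 overlapping matches, rose by 1.22 ± 0.17 in KO and 1.03 ± 0.17 in WT (log2 fold change, SE). Nfkbib, with no match, rose by 2.40 ± 0.19 in KO and 2.27 ± 0.19 in WT. A match says only that these letters are present, and no match says nothing about binding elsewhere.

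Levels were compared between genes per kilobase of the longest principal transcript (GENCODE M21), as CPM per kb over the 4 libraries of a treatment. The order of levels, and the shares given further on, depend on the length used. For Nfkb1 it was 4.117 kb, against 12.061 kb for its merged exons. After LPS+IFNγ, Nfkbia led with 487 ± 49.8 CPM per kb (SD, n = 4), and its lowest library was above the highest of any other member. Nfkb2 followed with 90.8 ± 12.2, then Tnfaip3 with 82.5 ± 34.9, Nfkbie with 80.8 ± 15.3, Nfkb1 with 60.1 ± 8.88 and Rela with 56.7 ± 3.80 CPM per kb. Each of these 5 overlapped its neighbour in that order. Below a gap came Nfkbib (37.0 ± 3.05), Relb (34.5 ± 1.42) and Nfkbiz (33.5 ± 10.4 CPM per kb), which overlapped too, and Rel was lowest with 12.9 ± 0.914 CPM per kb.

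In IL-4 cells the order of levels was different. Nfkb1 (28.8 ± 3.38 CPM per kb, SD, n = 4) and Rela (24.4 ± 3.13) overlapped at the top. Nfkbia stood below both with 16.8 ± 1.74 CPM per kb, without overlap, and Nfkb2 below that with 11.8 ± 0.957. Rel (7.89 ± 1.15), Nfkbib (7.33 ± 0.967), Tnfaip3 (5.93 ± 0.903), Relb (5 ± 0.757) and Nfkbie (4.05 ± 0.534 CPM per kb) overlapped from neighbour to neighbour. Nfkbiz was apart at the bottom with 0.613 ± 0.0903 CPM per kb. In control cells Nfkbia (36.5 ± 7.73), Rela (32.4 ± 3.12) and Nfkb1 (26.7 ± 3.21 CPM per kb) overlapped at the top, and the 7 others ran from Nfkb2 with 15.9 ± 3.47 down to Nfkbiz with 5.77 ± 2.33 CPM per kb, each overlapping the next.

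The make-up of the Rel family differed between treatments, given here per kb as a description with no test. Nfkb2 and Relb together made up 49.1% ± 3.91 of the Rel-family level after LPS+IFNγ and 21.6% ± 2.44 after IL-4, against 28.4% ± 4.34 in control (SD, n = 4 each). Their lowest LPS+IFNγ library, at 43.3%, was above the highest control library, at 31.5%. Rela made up 22.2% ± 1.12 after LPS+IFNγ and 31.3% ± 1.76 after IL-4, against 35.9% ± 5.61 in control. KO control library 2, at 44.0%, had the highest Rela share, and the other control libraries had 32.0% to 35.2%. The Nfkb1 share was 23.6% ± 3.67 after LPS+IFNγ and 37.0% ± 1.85 after IL-4, against 29.2% ± 1.42 in control, and that of Rel was 5.08% ± 0.376 and 10.1% ± 0.696, against 6.52% ± 0.689.

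The classical IκB genes also changed in proportion to the subunits. The summed level of Nfkbia, Nfkbib and Nfkbie was 2.37 ± 0.143 times that of the Rel family after LPS+IFNγ and 0.363 ± 0.0242 times after IL-4, against 0.547 ± 0.0549 times in control (per kb, SD, n = 4 each). The 3 treatments did not overlap, with 2.27 to 2.58 after LPS+IFNγ, 0.332 to 0.391 after IL-4 and 0.483 to 0.611 in control. Nfkbia was at 8.60 ± 0.859 times Rela after LPS+IFNγ and 0.691 ± 0.0398 times after IL-4, against 1.13 ± 0.236 times in control. Nfkbia made up 80.4% ± 3.39 of the classical IκB level after LPS+IFNγ and 59.6% ± 2.91 after IL-4, against 72.4% ± 2.05 in control, and the share of Nfkbib was 6.12% ± 0.369 and 25.9% ± 2.38, against 14.7% ± 1.15. The size of these ratios depends on the transcript length used.

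**Figure D3:**
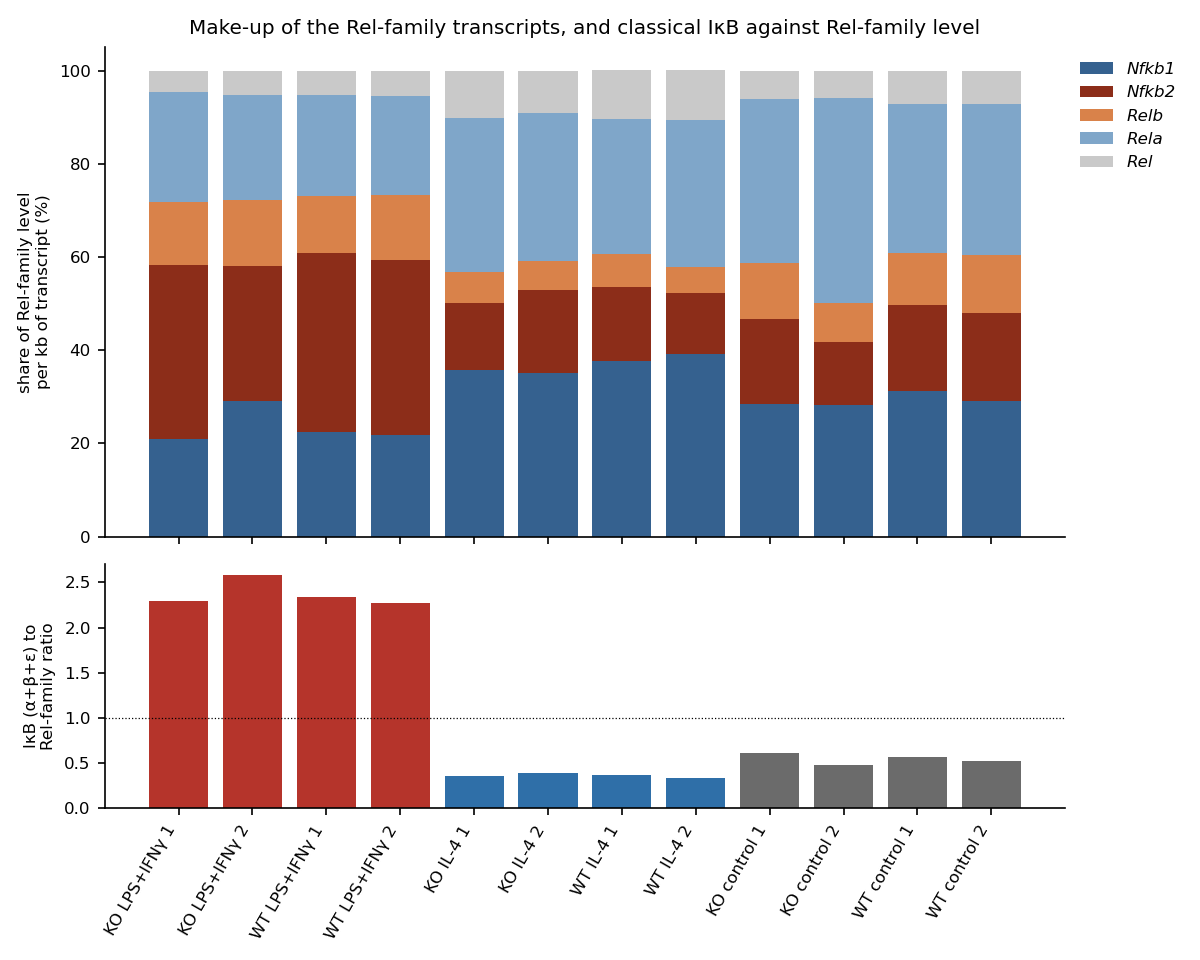
Share of each Rel-family gene in the family's summed level per kb (top, %) and ratio of the summed classical IκB level to the Rel-family level (bottom) in each of the 12 libraries, LPS+IFNγ first. Nfkb2 and Relb make up 43.3% to 51.6% in LPS+IFNγ libraries, and the ratio is above 1 (dotted line) in those 4 libraries and at most 0.611 in the others.

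With all 12 libraries fitted together, few members were called under IL-4, and those called were lower. Nfkbiz fell 8.48-fold in KO and 10.5-fold in WT, Nfkbia fell 2.15-fold in KO and 2.18-fold in WT, and Relb fell 2.21-fold in WT. By edgeR, 2 members were called lower in KO and 3 in WT, against a background of 3.34% of all tested genes called lower in KO and 4.12% in WT, and 0 were called higher, against 3.52% in KO and 4.92% in WT. The count in KO was 4 in DESeq2 and 0 with the 4 libraries of the contrast fitted alone, and leaving out 1 library moved it between 0 (KO IL-4 library 2 left out) and 4 (KO control library 2 left out). The count in WT was 6 with its 4 libraries alone, 0 when either WT IL-4 library was left out and 5 when either KO control library was. The number of all genes called moved with the left-out library too. In both genotypes the named fits with 0 members called fewer of all genes than those with 4 or 5. Over all genes, DESeq2 called 695 higher and 955 lower in KO, against 476 and 452 by edgeR. With the 4 libraries of the contrast alone, 7 genes were called higher and 1 lower in KO. In WT such a fit called 1859 genes higher and 1616 lower, against 665 and 557 with every library. Of the 6 members it called, 1 was higher (Rel). The median log2 fold change over the members was −0.37 in KO and −0.467 in WT, and over all genes 0.0036 in KO and −0.0162 in WT.

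Nfkbiz had 3.06 and 2.23 CPM in KO IL-4 and 2.34 and 2.46 CPM in WT IL-4 libraries, against 33.8 and 10.8 CPM in KO control and 23.9 and 26.5 CPM in WT control. Every IL-4 library was below every control library. The log2 fold change was −3.08 ± 0.50 in KO (SE; edgeR adjusted p = 0.00809) and −3.39 ± 0.50 in WT (0.00507), which ranked 94 and 73 from the lowest of 13525 genes. The KO call did not hold with KO IL-4 library 2 left out (0.0686) or with the 4 libraries of the contrast fitted alone (0.146), and the WT call without WT IL-4 library 1 (0.0575) or 2 (0.0529), while the value stayed between −3.72 and −2.04 in KO and between −3.46 and −3.31 in WT with any 1 library left out.

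Nfkbia had 30.2 and 23.6 CPM in KO IL-4 and 26.2 and 26.2 CPM in WT IL-4 libraries, against 72.0 and 43.8 CPM in KO control and 62.2 and 52.3 CPM in WT control, with no overlap. Its log2 fold change was −1.11 ± 0.23 in KO (SE; edgeR adjusted p = 0.0219) and −1.13 ± 0.23 in WT (0.0179). The KO call did not hold with KO control library 1 left out (0.101), where the value was −0.70, with KO IL-4 library 2 left out (0.133) or with the libraries of the contrast alone (0.205). The WT call was lost without any 1 of the 4 WT libraries of the contrast (0.0676 to 0.146).

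Relb had 12.8 and 9.33 CPM in KO IL-4 and 12.1 and 9.92 CPM in WT IL-4 libraries, against 26.6 and 14.7 CPM in KO control and 23.5 and 25.1 CPM in WT control. In KO the log2 fold change of −0.90 ± 0.25 was not called (SE; edgeR adjusted p = 0.0639), and in WT it was −1.14 ± 0.25 (0.0251), a call that was lost without any 1 of the 4 WT libraries of the contrast (0.102 to 0.167). Other members had smaller values. Nfkbie was at −0.85 ± 0.24 in WT (edgeR adjusted p = 0.0545) and Nfkb2 at −0.62 ± 0.23 in WT (0.122). Rela was at −0.49 ± 0.13 in KO (0.0609) and −0.32 ± 0.13 in WT (0.176), with 77.2 and 58.7 CPM in KO IL-4 and 60.5 and 69.2 CPM in WT IL-4 libraries.

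Rel was the single member whose IL-4 libraries lay above the control libraries in both genotypes. It had 65.0 and 46.3 CPM in KO IL-4 and 60.7 and 63.6 CPM in WT IL-4 libraries, against 45.4 and 34.4 CPM in KO control and 49.6 and 48.6 CPM in WT control. The KO log2 fold change of 0.48 ± 0.17 was not called (SE; edgeR adjusted p = 0.127). Without overlap, 1 member was above and 4 were below control in KO, where 25.6% of all genes were above and 23.6% below, and 1 was above and 6 were below in WT, where 30.8% of all genes were above and 33.3% below. Nfkb1, Nfkbib and Tnfaip3 overlapped control in both genotypes, with Tnfaip3 at 22.8 to 31.5 CPM in IL-4 libraries and 24.7 to 29.0 CPM in control libraries.

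Set against IL-4, all 10 members were higher after LPS+IFNγ in both genotypes, where 26.7% of all tested genes were called higher in KO and 28.1% in WT. The 2 stimuli share their control cells, but this comparison does not use them. Nfkbiz differed most, with a log2 fold change of 5.95 ± 0.53 in KO (SE; edgeR adjusted p = 1.38e-05) and 5.54 ± 0.53 in WT (1.87e-05). Nfkbia followed with 4.92 ± 0.26 in KO (7e-07) and 4.79 ± 0.26 in WT (7.65e-07). Rel differed least, by 0.74 ± 0.17 in KO (0.00526) and 0.69 ± 0.17 in WT (0.00691), and was not called when libraries were scaled by total counts (0.25 in KO, adjusted p = 0.219, and 0.26 in WT, 0.214).

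The comparison of KO with WT asks whether loss of Ptprz1 alters these genes. No member was called by edgeR in LPS+IFNγ, IL-4 or control cells or for the mean over the 3 treatments, where 0.0591%, 0.0665%, 0.0739% and 0.17% of all genes were called. None had an unadjusted p below 0.05 in these comparisons, where 1119, 453, 1011 and 1532 of all 13525 genes did. DESeq2 also called 0 members. Of all genes it called 14 higher and 20 lower after LPS+IFNγ, 5 and 13 after IL-4, 29 and 39 in control and 49 and 46 for the mean. The sex-linked transcripts coincided with genotype in all 12 libraries, so sex and genotype cannot be told apart here. The summed level of 11 stromal and endothelial markers was also higher in KO libraries, at 300 to 705 CPM against 78.9 to 210 in WT after LPS+IFNγ, 344 to 1353 against 62.4 to 211 after IL-4 and 355 to 855 against 68.0 to 352 in control, and its part in these values was not tested.

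After LPS+IFNγ, the member values ran from −0.37 ± 0.21 for Nfkbie to 0.57 ± 0.29 for Tnfaip3 (log2 fold change of KO over WT, SE; smallest edgeR adjusted p = 0.632). The Tnfaip3 value rested on KO LPS+IFNγ library 2, with 596 CPM against 276 CPM in the other KO library. Without that library it was −0.086, and without KO LPS+IFNγ library 1 it was 1.02 with an adjusted p of 0.0251, in a fit that called 504 of all genes between KO and WT, against 8 with every library. Nfkbie had 199 and 144 CPM in KO LPS+IFNγ libraries, against 215 and 229 CPM in WT. In IL-4 cells the range was −0.16 ± 0.17 for Rel to 0.21 ± 0.24 for Nfkbie (smallest adjusted p = 0.98), and the Rel value was 0.067 with KO IL-4 library 2 left out. In control cells it was −0.30 ± 0.17 for Rel to 0.24 ± 0.13 for Rela (0.708).

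Over the 3 treatments together, KO and WT differed by −0.19 ± 0.099 for Rel to 0.25 ± 0.17 for Tnfaip3 (log2 fold change, SE; smallest edgeR adjusted p = 0.477). The 95% confidence intervals of this mean difference lay within −0.44 to 0.78 for all 10 members, with Nfkbiz the widest, and that of Rela was −0.03 to 0.31. Each member's own interval includes 0, so its difference cannot be told from 0 with 2 libraries a group. The test does not show that the genotypes are alike. The libraries of the 2 genotypes did not overlap for 2 members above (Relb and Nfkbiz) and 1 below (Nfkbie) in KO LPS+IFNγ cells, where 19.5% of all genes were above and 19.6% below. None stood apart in IL-4 cells, where 15.1% of all genes were above and 15.6% below, and in control cells Rela was above and Rel below, where 21.6% of all genes were above and 22.6% below.

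**Figure D4:**
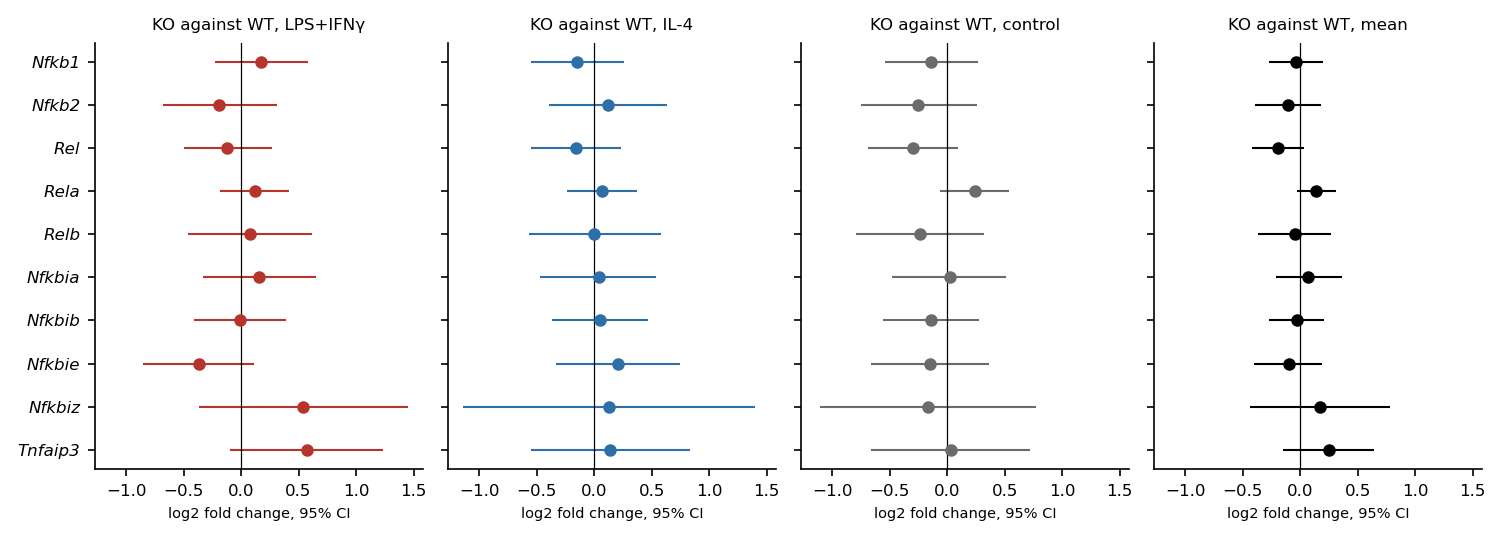
Log2 fold change of KO over WT with its 95% confidence interval for each member after LPS+IFNγ, after IL-4, in control cells and as the mean over the 3 treatments. Every interval includes 0, and those of Nfkbiz are the widest.

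Whether the responses themselves differed between genotypes was tested as an interaction. EdgeR called 0 members and 0 of all genes (0%) for LPS+IFNγ and for IL-4, while 476 and 604 genes, 0 members among them, had an unadjusted p under 0.05, and DESeq2 found 6 genes in each, again with 0 members. For LPS+IFNγ, member values ran from −0.22 ± 0.31 for Nfkbie to 0.71 ± 0.58 for Nfkbiz (log2 difference of the KO and WT responses, SE; smallest adjusted p = 0.991). Without KO control library 2, which had 10.8 CPM of Nfkbiz against 33.8 in the other KO control, the Nfkbiz value was 0.0855, and without KO control library 1 it was 1.76. For IL-4, values ran from −0.17 ± 0.19 for Rela to 0.36 ± 0.32 for Nfkb2. Single libraries set the direction of these small values: Nfkbie in the LPS+IFNγ interaction was at 0.17 without KO control library 1, Nfkb2 in the IL-4 interaction at −0.00038 without KO control library 2, and Rela in the IL-4 interaction at 0.013 without KO IL-4 library 2.

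A wider set of 103 genes of the pathway was read in the same fits, in 6 lists chosen with earlier results of these data known; all were tested except Il23a and Csf2, which were too low. After LPS+IFNγ, 79 were called higher and 6 lower in KO, and 80 higher and 5 lower in WT. These are 78.2% and 5.94% of the tested genes of the set in KO and 79.2% and 4.95% in WT, where 27.2% of all genes were called higher and 26.1% lower in KO, and 27.4% higher and 27% lower in WT. With libraries scaled by total counts, 64 were called higher and 13 lower in each genotype. Of all 13525 genes, that scaling called 1990 higher and 6049 lower in KO, and 2048 and 6170 in WT. The median log2 fold change over the tested genes of the set was 1.87 in KO and 1.75 in WT, against the medians near 0 of all genes given above. Of 13 genes for the IKK complex and its activating kinases, 8 rose and 1 fell in each genotype; with total-count scaling 4 were higher and 4 lower. Ripk2, the kinase downstream of NOD receptors, rose by 2.05 ± 0.16 in KO and 2.35 ± 0.16 in WT (log2 fold change, SE). Ikbke, the IKK-related kinase IKKε, reached 473 ± 62.8 CPM in KO and 376 ± 23.2 CPM in WT LPS+IFNγ libraries, against 97.8 ± 45.1 CPM in KO control and 112 ± 15.9 CPM in WT control (SD, n = 2 each). Of 19 receptor adaptors and ubiquitin ligases, 15 rose and 1 fell in KO and 14 rose and 1 fell in WT (9 higher in each with total-count scaling), led by Traf2 with 2.47 ± 0.14 in KO and 2.43 ± 0.14 in WT.

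Most brakes of the pathway were higher too: of 16 deubiquitinases, A20 partners and other inhibitors, 13 were called higher and 1 lower in each genotype. Traf1, an adaptor of TNF receptors, reached 272 ± 4.25 CPM in KO and 314 ± 50.0 CPM in WT LPS+IFNγ libraries, against 3.71 ± 1.59 CPM in KO control and 3.75 ± 0.485 CPM in WT control (SD, n = 2 each). Irak3, the kinase-dead IRAK-M, rose by 3.34 ± 0.26 in KO and 2.88 ± 0.26 in WT (log2 fold change, SE). Zc3h12a, the RNase Regnase-1 that destroys cytokine messages, rose by 3.12 ± 0.21 in KO and 2.75 ± 0.20 in WT. Of 9 non-canonical genes, 7 rose in KO and 9 in WT and none fell, among them the receptor Cd40 (5.19 ± 0.20 in KO and 6.10 ± 0.21 in WT) and Map3k14, which encodes NIK (2.00 ± 0.21 in KO and 1.38 ± 0.21 in WT).

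Of 8 other IκB-family and nuclear regulators, 5 rose and 1 fell in KO and 4 rose and 1 fell in WT. With total-count scaling 2 were higher and 2 lower in each, where more of all genes were called lower than higher. Bcl3, a nuclear IκB that binds p50 and p52 dimers, rose by 2.74 ± 0.32 in KO and 2.88 ± 0.32 in WT (log2 fold change, SE), and Nfkbid, the nuclear IκBNS, by 1.71 ± 0.21 in KO and 1.64 ± 0.20 in WT. Without KO control library 1 the Bcl3 value in KO was 3.39. Nkrf, an NF-κB repressing factor, had −1.06 ± 0.20 in KO and −0.73 ± 0.20 in WT and was called lower in both, a call that was lost in WT without WT LPS+IFNγ library 1 (edgeR adjusted p = 0.0758) or WT control library 2 (0.0677). The other genes called lower, named after their values were seen, were Map3k7, Irak1, Otulin and Plau in both genotypes and Cd83 in KO. The Map3k7 call in WT (−0.26, edgeR adjusted p = 0.0449) was lost in 8 of 12 fits that left out 1 library, with each of the 4 WT control and LPS+IFNγ libraries among them, and in DESeq2, and the Cd83 call in KO (−0.81, 0.048) was lost in 8 of 12, KO control library 1 and KO LPS+IFNγ library 2 among them. Of 36 tested textbook target genes, 31 rose and 2 fell in KO and 32 rose and 1 fell in WT. Nos2, the inducible nitric oxide synthase, had 5452 ± 466 CPM in KO and 5251 ± 652 CPM in WT LPS+IFNγ libraries, against 0.0691 ± 0.0977 CPM in KO control and 0.0246 ± 0.0348 CPM in WT control (SD, n = 2 each), and Ccl5 had 9455 ± 420 and 9442 ± 211 CPM, against 5.71 ± 7.11 and 1.67 ± 0.708 CPM.

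Under IL-4, 7 genes of the wider set were called higher and 8 lower in KO, or 6.93% and 7.92% against 3.52% and 3.34% of all genes. In WT 6 were called higher and 5 lower, or 5.94% and 4.95% against 4.92% and 4.12%. The counts were 0 and 0 in KO and 19 and 19 in WT with the libraries of the contrast alone, and leaving out 1 library moved them between 3 and 9 higher and 0 and 16 lower in KO and between 2 and 8 higher and 0 and 10 lower in WT. Over all genes, the fit to the libraries of the contrast alone called 7 higher and 1 lower in KO and 1859 and 1616 in WT. The number of all genes called under IL-4 also moved with the left-out library, in both genotypes. The set had a median log2 fold change of −0.18 in KO and −0.03 in WT. Malt1, the paracaspase that also cleaves A20, rose by 0.95 ± 0.23 in KO and 1.02 ± 0.23 in WT (log2 fold change, SE; edgeR adjusted p = 0.0389 in KO and 0.0261 in WT). Traf5, an adaptor of TNF receptors, rose by 1.49 ± 0.31 in KO and 1.53 ± 0.31 in WT, and Ripk2 by 0.61 ± 0.16 in KO and 1.21 ± 0.16 in WT. Of 12 fits that each left out 1 library, the KO call was lost in 10 for Malt1, 3 for Traf5 and 10 for Ripk2, and the WT call in 4 for Malt1 and Traf5, without any 1 of the 4 WT libraries of the contrast, and in 0 for Ripk2. Irak3 had −1.16 ± 0.26 in KO and −1.05 ± 0.26 in WT, and Marcksl1 −3.01 ± 0.57 in KO and −3.06 ± 0.58 in WT, both called lower. The Irak3 call was lost in 9 of these fits in KO and 6 in WT and that of Marcksl1 in 2 and 4, and without KO control library 1 the Marcksl1 value in KO was −1.65. Ccl2, a monocyte chemokine, reached 23.3 ± 1.72 CPM in KO and 26.1 ± 1.15 CPM in WT IL-4 libraries, against 7.37 ± 0.128 CPM in KO control and 3.13 ± 0.376 CPM in WT control (SD, n = 2 each), a call that no left-out library ended. No gene of the wider set was called between KO and WT under any treatment or in an interaction.

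**Figure D5:**
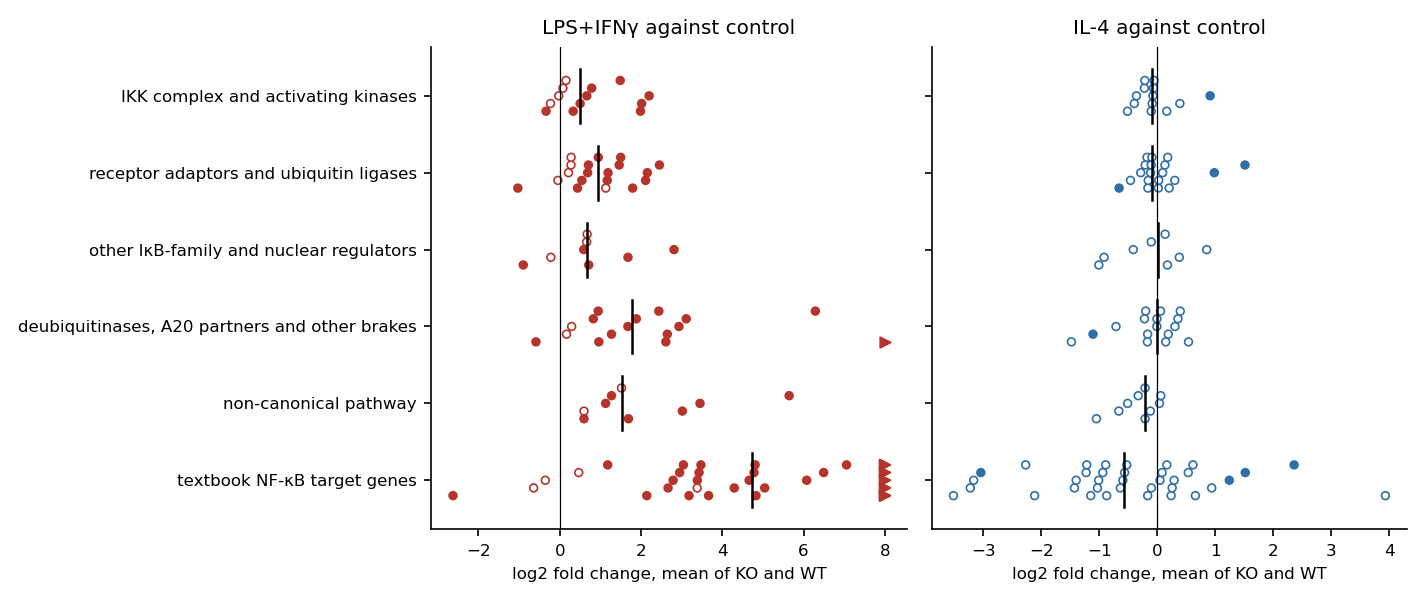
Log2 fold change (mean of KO and WT) of the tested pathway genes by list, after LPS+IFNγ (left) and IL-4 (right) against control; filled points were called in both genotypes, lines are list medians, and triangles stand for values above the plotted range, which depend on near-zero control counts. Most LPS+IFNγ points lie above 0, and IL-4 points lie on both sides.

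Across the 12 libraries the members' log2 CPM followed each other, with Pearson's r above 0.9 in 28 of 45 pairs and lowest for Rel with Nfkbiz at 0.59; since 4 LPS+IFNγ libraries stand apart from the other 8, these values mostly describe that split. Among 8464 genes with a mean of at least 10 CPM, the profile most like that of Nfkbia was Il4ra (r = 0.998), that of Nfkb2 was Rab20 (0.998), and that of Tnfaip3 was Il12b (0.996). Rel and Nfkbiz had the fewest close profiles, with 33 and 117 genes at r above 0.95, against 324 to 988 for the other members. The closest gene was Ptgir for Rel (0.984) and Pou2f2 for Nfkbiz (0.991). For the rest it was Igsf6 for Nfkb1 (0.994), Sipa1l2 for Rela (0.987), Fnbp1l for Relb (0.994), H2-K1 for Nfkbib (0.995) and Serp1 for Nfkbie (0.996).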

How the data were processed

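RNA was sequenced in 12 libraries, and per the labels' protocols the kit (NEBNext Ultra II) was a directional one. The authors deposited estimated counts per Ensembl gene, all whole numbers as deposited, and these were used as they stood. Per the submitters' processing notes, FastQC 0.11.9, Salmon 1.10.2, R 4.4.1 and DESeq2 1.45.3 were used with build GRCm39, with no role given; the annotation and any use of strand were not given in the sources used here, which leaves the counts of overlapping genes uncertain. Symbols were found for 92.0% of the identifiers, with GRCm38 lengths in GENCODE M21, and promoters were read from RefSeq on GRCm38.p6. Coordinates were not converted between builds.

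Counts were tested with edgeR 4.0.16 in R 4.3.3: filterByExpr, TMM factors (0.756 to 0.833 in LPS+IFNγ, 1.09 to 1.16 in the others), 1 coefficient per group over all 12 libraries (6 residual degrees of freedom), two-sided quasi-likelihood F tests and Benjamini-Hochberg adjustment over 13525 genes with a threshold of 0.05. The script was tested on simulated data. The F statistics gave the SEs of log2 fold changes, and CPM uses TMM-scaled library sizes. Depth limits precision: 3 counts are 0.138 to 0.29 CPM, which covers counting error only. Shares and ratios were computed in Python 3.11.15 from CPM per kb. Alternatives were DESeq2 1.42.0, other scalings, no filter, the libraries of a contrast alone, blocks by library number and leaving out each library. Named genes were the 10 members, up to 4 genes per pathway list with the largest LPS+IFNγ change and up to 2 called under IL-4 with the same sign in both genotypes, and the closest profiles. The members and lists were chosen with earlier results of these data known.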

Additional observations from a re-analysis of the deposited data

Results flagged for a closer look

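Levels and shares were screened within the 4 libraries of each treatment, both genotypes together, for a library that stands apart (Dixon's ratio of its gap to the nearest library over the whole range). Chance alone flags about 1 in 20 groups, and 8 of 63 were found. The levels, shares and ratios rest on the same genes and libraries, so the groups are not separate tests. The 8 can therefore not be read as an excess. After LPS+IFNγ, KO library 2 had 596 CPM of Tnfaip3, against 276 to 295 CPM in the other 3 libraries, and 202 CPM of Nfkbiz, against 112 to 125 CPM. In the same library Nfkb2 made up 29.1% of the Rel-family level, against 37.2% to 38.4%, and Nfkb2 with Relb made up 43.3%, against 50.7% to 51.6%. KO LPS+IFNγ library 1 had the lowest Rel share, at 4.51% against 5.22% to 5.29%. KO control library 2 had the lowest Nfkb2 share, at 13.6% against 18.3% to 18.9%. WT IL-4 library 2 had 32.5 CPM of Nfkb2, against 38.2 to 38.7 CPM, and in WT control library 2 Nfkbie made up 14.7% of the classical IκB level, against 12.1% to 12.3%.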

How the results depend on the processing

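With 2 libraries a group, calls near the threshold depend on the fit, and low counts limit Nfkbiz in IL-4 cells (42 to 56 counts). All 10 members stayed called higher after LPS+IFNγ against control, and against IL-4, in both genotypes under every alternative except total-count scaling, given with the values of Rela and Rel. The number of all genes called under IL-4 moved with the fit. With no filter it was 782 higher and 838 lower in KO and 838 and 856 in WT, against 476 and 452 and 665 and 557. For IL-4 against control, the number of members called (2 in KO, 3 in WT) was 4 in KO and 5 in WT with no filter on low counts, 4 in KO with DESeq2, and 0 in KO and 6 in WT, 1 of them higher (Rel), with the libraries of the contrast alone. Leaving out 1 library moved it between 0 and 4 in KO and between 0 and 5 in WT, and moved the KO against WT count after LPS+IFNγ between 0 and 1 (504 of all genes were called in the fit with 1). Over leave-one-out fits, KO against WT ran from −0.086 to 1.02 for Tnfaip3 after LPS+IFNγ and from −0.43 to 0.067 for Rel after IL-4, and the interaction from −0.55 to 0.17 for Nfkbie and from 0.0855 to 1.76 for Nfkbiz (LPS+IFNγ), from −0.00038 to 0.80 for Nfkb2 and from −0.38 to 0.013 for Rela (IL-4). Each such fit leaves 1 group with a lone library, assumed to vary like the others. Numbers of all genes called moved more: KO against WT gave 8, 9 and 10 genes after LPS+IFNγ, after IL-4 and in control, and 34, 18 and 68 with DESeq2 and 81, 33 and 107 with no filter. The difference in the classical IκB to Rel-family ratio, LPS+IFNγ minus control, was 1.83, and 0.934 without length, 2.71 with merged exon length (chosen after seeing the data) and 4.78 without Nfkb1 and Nfkb2; for IL-4 minus control it was −0.184, −0.101, −0.253 and −0.269. The cause of these shifts was not tested.

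Library numbers are not stated to pair the samples. Deviations of same-numbered libraries correlated above 0.1 in 14 of 15 pairs of groups (0.0464 to 0.337). With the number as a replicate block, 3 members were called in KO and 5 in WT for IL-4 against control. With the block within genotype 4 were called in KO and 5 in WT. No other count of members called changed. For the mean of KO against WT, the block called 138 of all genes higher and 35 lower, against 6 and 17. Under IL-4 it called 591 of all genes higher and 590 lower in KO, against 476 and 452. In WT it called 838 and 765, against 665 and 557. Within genotype these were 771 and 806 in KO and 1030 and 1034 in WT. The members gained were Relb in KO (edgeR adjusted p = 0.0424, and 0.0281 within genotype), Rela in KO (0.0412 within genotype), Nfkb2 in WT (0.0487 and 0.0376) and Nfkbie in WT (0.0491 and 0.0322).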
